A study of Mus musculus with 6 samples.

Results

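Prim2 and Dst are 2 protein-coding genes of mouse chromosome 1, each with 1 probe that can be named on the lncRNA and mRNA microarray. The 2 probes, ASMM10P011802 for Prim2 and ASMM10P013806 for Dst, were taken from 60915 probes. They were chosen by their difference between the genotypes on these same arrays, so that difference is given here as a description, without a test, and supports nothing by itself. Both probes passed the filter on dim signals, together with 43528 probes in all. The study set 3 Nrf2 (+/+) against 3 Nrf2 (−/−) mice, using 1 array and 1 Cy3-labelled hippocampal sample for each. All were male ICR mice aged 3 to 4 months. The labels describe the groups as wild type and Nrf2 gene knockout, and name no treatment. Ribosomal RNA was removed before the remaining RNA was labelled by random priming along the transcripts. The hippocampus label could not be checked against the markers of neurons, as none of their probes can be named from the sources used here.

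Nrf2, encoded by Nfe2l2, is a transcription factor that binds antioxidant response elements and switches on genes for detoxification and redox defence. Prim2 encodes the large subunit of DNA primase, which works with DNA polymerase alpha to lay down the short RNA primers that start DNA synthesis at replication forks. Dst encodes dystonin, a giant plakin cytolinker that connects intermediate filaments, actin and microtubules. Different promoters and splicing give its neuronal, muscle and epithelial forms, and its loss causes sensory neuropathy in mice.

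Because Dst is transcribed from several start sites, the upstream sequences of the 2 starts listed by RefSeq (GRCm38.p6) are shown to make clear that 1 array probe may stand for transcripts of different promoters. The first covers chr1:34011345-34011594 and the second chr1:34160010-34160259, both on the plus strand, as the 250 bases before each start. The starts lie 148665 bases apart. Capitals mark matches to the motifs searched.
Dst promoter 1: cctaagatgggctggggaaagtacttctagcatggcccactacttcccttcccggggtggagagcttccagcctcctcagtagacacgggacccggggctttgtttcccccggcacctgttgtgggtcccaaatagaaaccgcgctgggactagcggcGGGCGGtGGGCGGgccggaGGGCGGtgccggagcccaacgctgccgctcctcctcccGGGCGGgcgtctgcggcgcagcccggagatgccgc
Dst promoter 2: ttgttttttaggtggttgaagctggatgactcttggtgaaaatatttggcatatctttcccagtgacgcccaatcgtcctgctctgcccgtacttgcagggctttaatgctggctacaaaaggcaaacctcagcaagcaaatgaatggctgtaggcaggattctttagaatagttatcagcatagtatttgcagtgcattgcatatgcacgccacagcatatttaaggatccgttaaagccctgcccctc
The search covered both strands for the core of the antioxidant response element (TGACNNNGC), the TATA box (TATAAA) and the GC box (GGGCGG). The first promoter held 4 GC box matches, none overlapping another, and the second held 0. Neither window held a match to the TGACNNNGC core or to TATAAA. Among 32536 mouse promoter windows of the same length, 33.0% held the GC box, 10.2% the TGACNNNGC core and 12.3% TATAAA. The windows also differed in base composition. GC content was 68.8% in the first Dst promoter, with 22 CG dinucleotides, and 45.2% in the second, with 5, against a median of 52.4% over all windows. A match is a description of letters and not of binding. Which of the 2 starts gave rise to the RNA read by the Dst probe was not tested.

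The targeted gene was examined first, to check the labels. Nfe2l2 gave a quantile-normalized log2 signal of 12.20 ± 0.24 (SD, n = 3) in Nrf2 (+/+) and 7.93 ± 0.10 in Nrf2 (−/−) hippocampus, a log2 difference of −4.27 with an adjusted p of 0.000672 in limma. It fell on every knockout array. Across the array, 21 of 43528 probes, or 0.0482%, had an adjusted p under 0.05 (6 higher and 15 lower in Nrf2 (−/−) mice), and 2196 had an unadjusted p under 0.05. Of the 2 members, 0 were among these 21, which is not read as a test, as the same contrast had chosen them.

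Prim2 gave a clear signal in both genotypes and was brighter in each Nrf2 (−/−) mouse than in any Nrf2 (+/+) mouse. On the quantile-normalized log2 scale its levels were 10.04, 8.999 and 9.31 in Nrf2 (+/+) replicates 1, 2 and 3. In Nrf2 (−/−) replicates 1, 2 and 3 they were 10.63, 11.39 and 11.04. The genotypes did not overlap, and 0.59 on the log2 scale separated the lowest knockout array, replicate 1, from the highest wild-type array, also replicate 1. The means were 9.45 ± 0.53 (SD, n = 3) and 11.02 ± 0.38, and the log2 difference was 1.57 (limma SE 0.32), or 2.97-fold. As the RNA came from whole tissue, more RNA per cell and a larger share of cells that make it cannot be told apart, for this gene and for Dst.

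Dst was dim, and on the quantile-normalized scale the genotypes met at their edges. Its log2 levels were 4.39, 4.18 and 5.35 in Nrf2 (+/+) replicates 1, 2 and 3. They were 6.76, 5.36 and 6.64 in the Nrf2 (−/−) replicates. Knockout replicates 1 and 3 stood well above all wild-type arrays, whereas knockout replicate 2 lay beside wild-type replicate 3, only 0.012 higher. The means were 4.64 ± 0.62 (SD, n = 3) and 6.26 ± 0.78, and the log2 difference was 1.62 (limma SE 0.45), or 3.06-fold. As 2 of the 3 wild-type signals were not well above background, the size of this difference is uncertain. The gap between the genotypes depended on the scaling. After a shift of each array to its 75th percentile it was 0.53 for Dst and 0.58 for Prim2, and before normalization it was 1.23 and 1.18, while the deposited log2 values gave 0.0094 and 0.60. The Dst genotypes thus met on the quantile-normalized scales and not on the other pair.

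**Figure D1:**
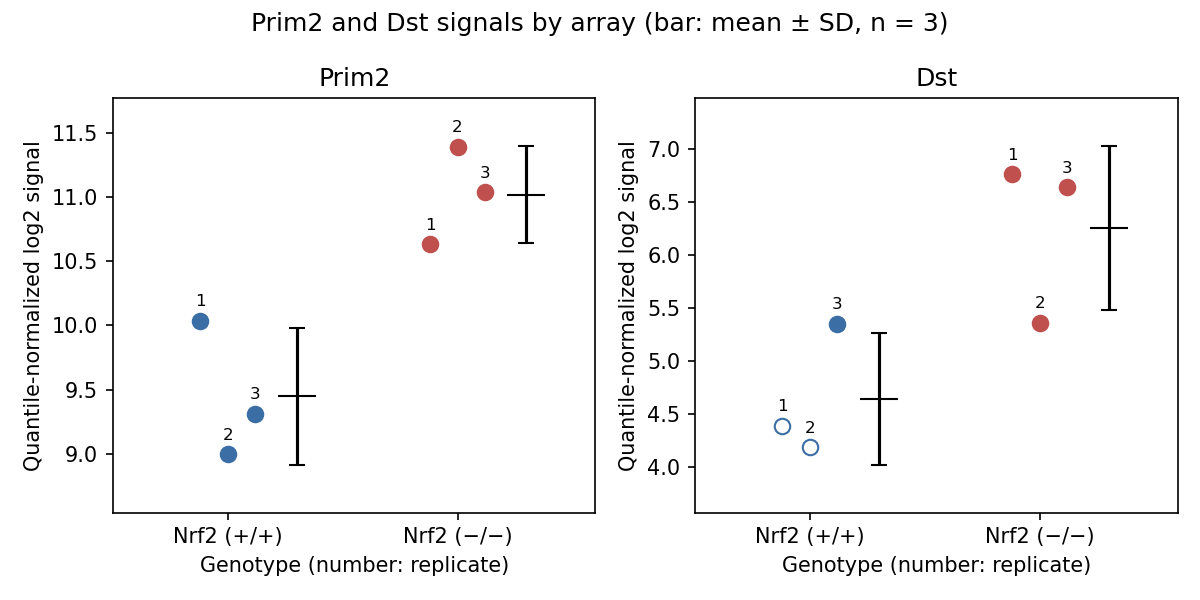
Quantile-normalized log2 signal of Prim2 (left) and Dst (right) on each array, with numbers for replicates, filled points for spots well above background, open points for spots that were not, and bars for the mean ± SD of 3 mice. On this scale Prim2 leaves a gap of 0.59 between the genotypes and Dst a gap of 0.012, against 0.58 and 0.53 after a 75th percentile shift, and the open points are Dst in Nrf2 (+/+) replicates 1 and 2.

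All 3 knockout arrays lay above all 3 wild-type arrays for both members, an order found in 4.23% of the 43528 probes tested. Both members also passed the limits used for DEmRNAs, an unadjusted p under 0.05 and a fold change above 1.5, with higher signals in Nrf2 (−/−) mice. That direction and limit held for 544 probes, or 1.25%, and a further 1156 passed it with lower signals. After a shift of each array to its 75th percentile in place of quantile normalization, the split was 1003 higher and 976 lower. Nothing is read from these counts about the members, as the same contrast had chosen them. Ranked from the most positive log2 difference, Prim2 was at place 64 of 43528. The spread within genotypes was large for Dst, whose pooled SD exceeded that of 93.6% of the tested probes, and less so for Prim2, at 75.4%.

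The detection flags separated the members. The flag for a signal well above background was set for Prim2 on 3 of 3 Nrf2 (+/+) and 3 of 3 Nrf2 (−/−) arrays. For Dst the same flag was set on 1 of 3 Nrf2 (+/+) arrays, replicate 3, and on 3 of 3 Nrf2 (−/−) arrays. The weaker flag of the scanner software, a signal positive and significant against the local background, was set for both members on all 6 arrays. No spot of either member was an outlier or saturated.

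The background-subtracted intensities before any normalization show how far each spot stood from the floor. Prim2 had intensities of 945, 404 and 470 in Nrf2 (+/+) replicates 1, 2 and 3 and of 2148, 3225 and 2323 in the Nrf2 (−/−) replicates. The scanner software estimated the error of each Prim2 spot at 10.0% to 10.1% of its signal, and 0 of the 300 negative-control spots on any array were brighter. Prim2 was therefore measured far above the negative controls in every mouse.

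For Dst, the intensities were 16.9, 15.3 and 25.9 in Nrf2 (+/+) replicates 1, 2 and 3, with estimated errors of 43.5%, 31.4% and 21.3%. In Nrf2 (−/−) replicates 1, 2 and 3 they were 157, 60.6 and 106, with errors of 10.96%, 14.1% and 11.7%. The raw Dst spot was 2.42, 2.11 and 2.95 times its local background in the wild-type mice and 7.96, 3.70 and 7.13 times in the knockout mice. Wild-type Dst signals were thus a few times background at most, with large spot errors. On the wild-type arrays 45, 42 and 40 of the 300 negative-control spots were brighter than the Dst spot. On each of these arrays 2 of the 15 negative-control probes exceeded the Dst spot in the median of their 20 spots. On the knockout arrays 3, 24 and 0 of the 300 spots were brighter. Knockout replicate 2 was again the knockout array closest to the floor.

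**Figure D2:**
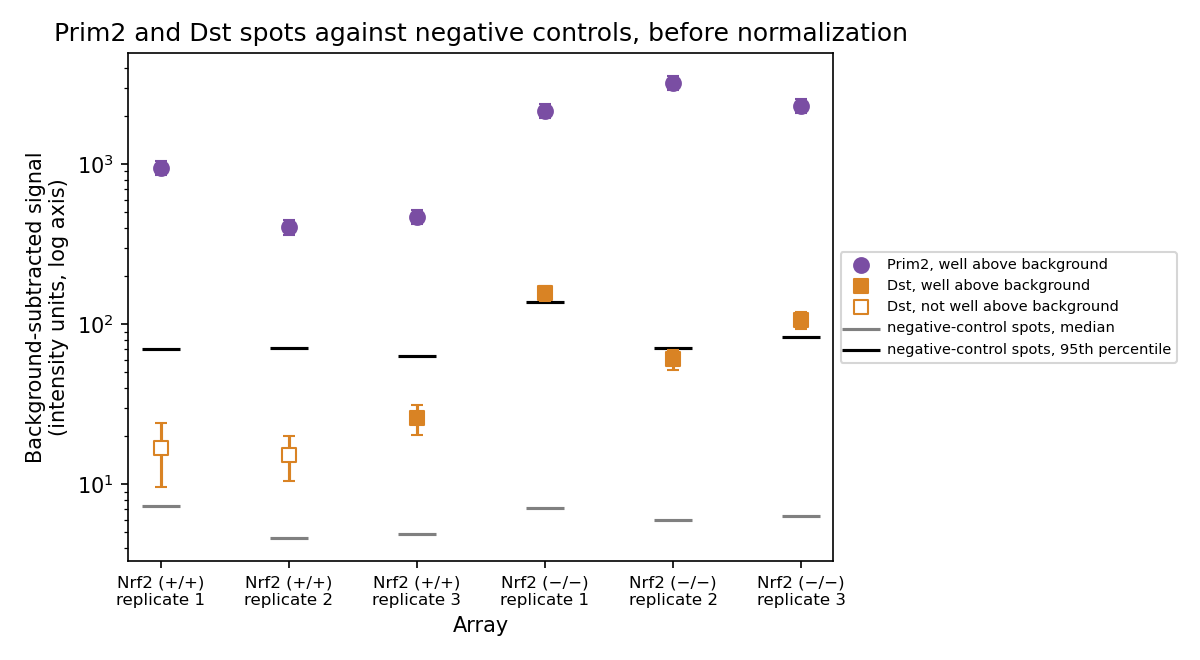
Background-subtracted signal (intensity units, log axis) of the Prim2 and Dst spots on each of the 6 arrays, with bars for the error estimated by the scanner software and dashes for the median and 95th percentile of 300 negative-control spots. Prim2 lies above both dashes on every array, whereas Dst lies below the 95th percentile on the 3 Nrf2 (+/+) arrays and on Nrf2 (−/−) replicate 2.

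The arrays of the genotypes differed in overall brightness, with median probe intensities of 87.7 to 109 on Nrf2 (+/+) and 138 to 184 on Nrf2 (−/−) arrays. Relative to the median of its own array, Prim2 was 8.70, 3.84 and 5.35 times as bright in the wild-type mice and 11.7, 18.7 and 16.8 times in the knockout mice. Dst reached 0.155, 0.145 and 0.295 of the array median in the wild-type mice and 0.855, 0.351 and 0.770 in the knockout mice. Both genes kept the order of the genotypes after this division. Within its own array, Prim2 stood at the 78.4th, 70.1st and 72.8th percentile of all probes in the wild-type mice and at the 82.5th, 86.6th and 84.8th in the knockout mice. Dst stood at the 25.6th, 24.1st and 33.7th and at the 47.8th, 33.8th and 46.5th percentile. Prim2 was above the middle of the array and Dst below it on all 6 arrays.

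Because each member was printed as 1 spot per array, repeat spots could not be compared for either. Probes for 15 control genes, with 20 spots each, had a median SD of 0.036 on the log2 scale between spots of the same array, with a maximum of 0.21. The 15 negative-control probes, also with 20 spots each and with mean log2 signals from 2.19 to 7.12, had a median SD of 0.043 and a maximum of 0.36.

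Among the settings for background and scaling, the Dst difference moved further than that of Prim2. With a normexp background correction, which models the background and adds an offset of 50, the Dst difference was 0.63, whereas Prim2 gave 1.44. Where the Dst signal was not well above background it was also raised to the lowest signal that was, an alternative chosen after seeing the data. The wild-type mean then became 5.17 ± 0.35 (SD, n = 3) and the difference 1.09, or 2.13-fold. The signals deposited by the authors as log2 values gave 1.57 for Prim2 and 1.62 for Dst, and the shift to the 75th percentile gave 1.56 and 1.82. Both members kept higher means in Nrf2 (−/−) mice under every setting tried.

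Arrays scanned together allowed a comparison within a scan pass, the name used here for arrays with an identical scan time. Both replicates 1 shared a pass, as did both replicates 3. Within the first of these passes the knockout array exceeded the wild-type array by 0.59 for Prim2 and by 2.38 for Dst. Within the second the excess was 1.73 for Prim2 and 1.29 for Dst. The wild-type Dst spot of the first pass was not well above background, so the size of that Dst value is uncertain. With the scan pass as a block, the differences were 1.16 (limma SE 0.28) for Prim2 and 1.83 (limma SE 0.27) for Dst. Nrf2 (+/+) replicate 2 and Nrf2 (−/−) replicate 2 each had a pass of their own. That fit therefore rests on the pairs of replicates 1 and 3 alone. Adjusted p-values and counts given below with this block have the same limit.

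**Figure D3:**
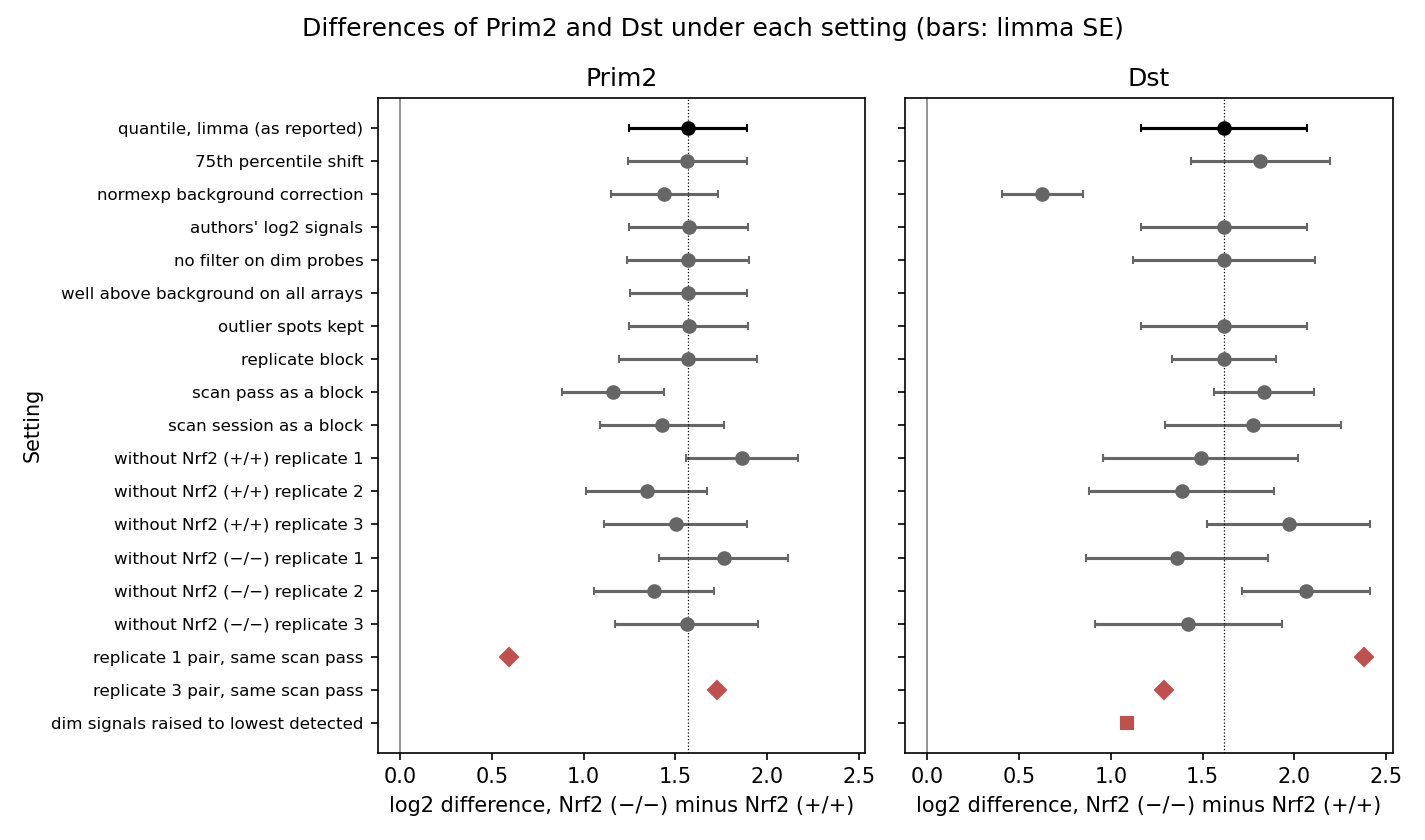
Log2 difference of Prim2 and Dst, Nrf2 (−/−) minus Nrf2 (+/+), under each setting, with bars for the limma SE, a dotted line at the reported value diamonds for single pairs of arrays from the same scan pass and a square for dim Dst signals raised to the lowest signal well above background. All points lie above 0, from 0.59 to 1.86 for Prim2 and from 0.63 to 2.38 for Dst.

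Leaving out each array in turn kept the difference between 1.34 and 1.86 for Prim2 and between 1.36 and 2.06 for Dst. Nrf2 (−/−) replicate 2 stood apart from the other arrays over all tested probes, with a mean root-mean-square (RMS) distance of 0.767 log2 units to the others, against 0.540 to 0.589 for the rest. Without it, the difference was 1.38 (limma SE 0.33) for Prim2 and 2.06 (limma SE 0.35) for Dst. This array lowered the Dst difference and raised that of Prim2.

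The members differed in how single mice deviated from their genotype mean. For Prim2, the deviations were 0.59, −0.45 and −0.14 on the log2 scale in Nrf2 (+/+) replicates 1, 2 and 3 and −0.39, 0.37 and 0.02 in the Nrf2 (−/−) replicates. For Dst they were −0.25, −0.46 and 0.71 in the wild-type mice and 0.51, −0.89 and 0.38 in the knockout mice. Wild-type replicate 1 and knockout replicate 2 had the highest Prim2 level of their genotype, and knockout replicate 2 had the lowest Dst level of its own. Only wild-type replicate 2 and knockout replicate 3 deviated in the same direction for both genes.

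To express this over the 6 arrays, each profile was centred on its mean and the RMS difference between profiles was taken. Prim2 and Dst were 0.813 apart, and 0.812 apart once the mean of each genotype was removed, so nearly all of the distance lay between mice of the same genotype. Of 43365 tested probes with a value on all arrays, 8550 were closer to Prim2 than Dst was, and 1847 were closer to Dst than Prim2 was. With the genotype means removed, these counts were 41871 and 34355. The 109 DEmRNA probes with higher signals in Nrf2 (−/−) mice form 5886 pairs, with a median RMS difference of 0.340, and 91.5% of these pairs were closer than Prim2 and Dst. These distances describe 6 shared arrays and include the genotype difference, which had chosen both members and all DEmRNAs.

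Of the 5 probes with the profile most like each member, those that can be named were listed under other genes. Nearest to Prim2 was a probe listed as a lncRNA under the symbol Efcab6, on chromosome 15, at an RMS difference of 0.125. It was followed by Krt15, a keratin gene of chromosome 11, at 0.192, 1700012P22Rik of chromosome 4 at 0.210, an unnamed probe at 0.228 and a lncRNA listed under Raly, of chromosome 2, at 0.232. Efcab6 and 1700012P22Rik were not well above background on any Nrf2 (+/+) array. Krt15, bright on all 6 arrays, had a log2 difference of 1.48 (limma SE 0.35, adjusted p = 0.399).

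Dst had no probe as close as those of Prim2. Its nearest was AK040514, listed as a lncRNA of chromosome 1, at an RMS difference of 0.269. Next were a lncRNA listed under Tspan18, of chromosome 2, at 0.309, unnamed probes at 0.340 and 0.341, and a transcript of an ultraconserved element on chromosome 15 (probe ASMM10UP662) at 0.364. AK040514 was not well above background on any Nrf2 (+/+) array, and in Nrf2 (−/−) mice it was higher by at least 1.62-fold (adjusted p = 0.307). With normexp its log2 difference was 0.53, so this bound holds for the quantile-normalized scale alone. Its adjusted p was 0.0165 with the scan pass as a block and 0.0332 without Nrf2 (−/−) replicate 2. AK040514 passed the filter on dim signals through the knockout arrays alone, so nothing is read from its p-values. The ultraconserved transcript, bright on all 6 arrays, had a log2 difference of 1.80 (limma SE 0.26, adjusted p = 0.132). The same 2 alternatives gave it an adjusted p of 0.0102 and 0.0171.

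**Figure D4:**
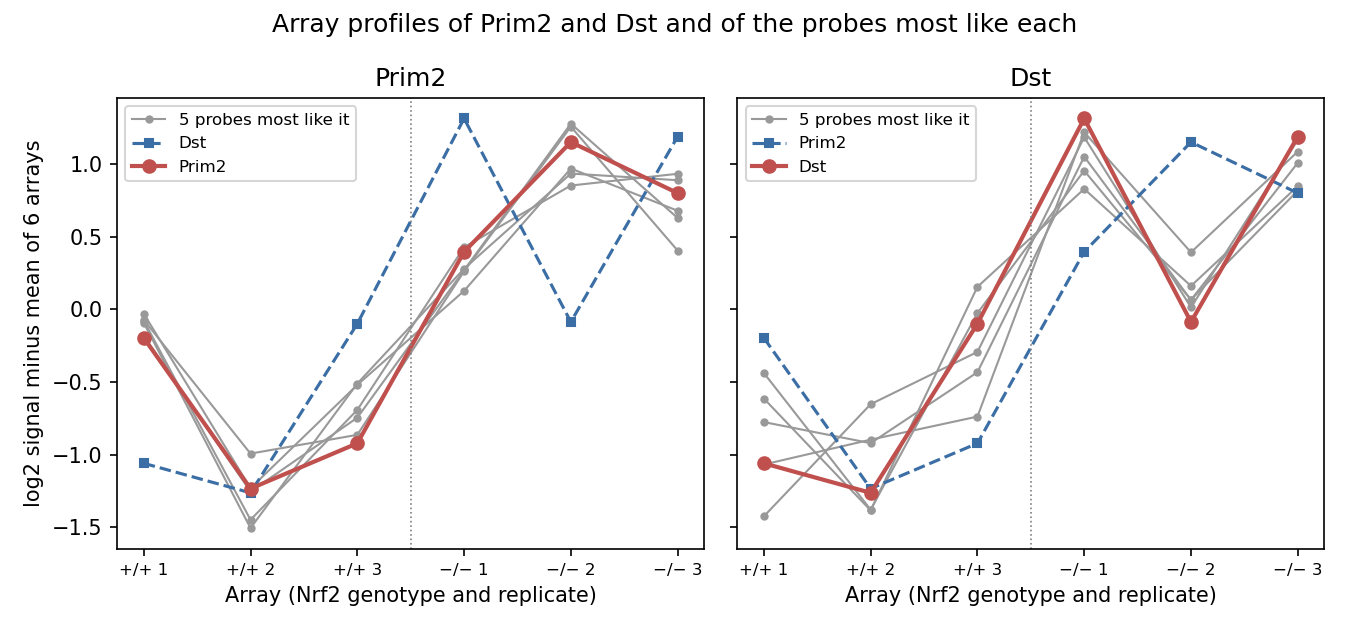
Log2 signal minus the mean of the 6 arrays for Prim2 (left, solid) and Dst (right, solid), each with the other member (dashed) and the 5 most similar probes (grey). The solid and dashed lines part most at Nrf2 (−/−) replicate 2, where Prim2 is at its highest and Dst, among the knockout arrays, at its lowest.

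On the chromosome, Prim2 and Dst are near neighbours. In the order of RefSeq protein-coding genes, 5 genes lie between them, namely Rab23, Bag2, Zfp451, Gm15455 and Bend6. A window of 15 genes around and between the members was looked up, and 0 had a probe that can be named, so the genes between them are not analysed here. The nearest gene with a named probe was Arhgef4, 8 genes beyond Dst. The log2 signal of its probe, listed as a lncRNA, was 10.15 ± 0.31 (SD, n = 3) in Nrf2 (+/+) and 8.94 ± 0.34 in Nrf2 (−/−) mice, a log2 difference of −1.21 (adjusted p = 0.282), opposite in sign to both members. Creg2, the next listed gene on that side, lay 56 genes away with a difference of −0.64 (adjusted p = 0.632). With the scan pass as a block, the adjusted p was 0.0402 for Arhgef4 and 0.109 for Creg2.

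Chromosome 1 held 36 DEmRNA probes of 35 genes, of which 8 had higher and 28 lower signals in Nrf2 (−/−) mice. The higher share was 22.2%, and on the other chromosomes it was 26.9% of 376 probes. Both members were among the 8. Kif14, a mitotic kinesin, and Dusp27, an atypical dual-specificity phosphatase, were not well above background on any Nrf2 (+/+) array. Dusp27 was higher by at least 1.44-fold (adjusted p = 0.212). Its adjusted p was 0.0218 with the scan pass as a block and 0.0330 without Nrf2 (−/−) replicate 2. Dusp27 passed the filter through the knockout arrays alone, so nothing is read from its p-values. No fold is given for Kif14, whose knockout mean was under the mean of the lowest wild-type signals well above background. The adjusted p of Kif14 was 0.0204, from 0.00366 to 0.389 over the alternatives. That value rests on wild-type signals near the floor and on a filter passed through the knockout arrays alone, so nothing is read from it. Atp1a4, a Na,K-ATPase subunit, had a log2 difference of 0.88, then Glrp1 with 0.78 and Brox with 0.66. Daw1, also not well above background on any Nrf2 (+/+) array, was higher by at least 1.23-fold (adjusted p = 0.549). With normexp its log2 difference was 0.22, so this bound holds for the quantile-normalized scale alone. In the order of log2 difference, no DEmRNA probe of the chromosome lay between Prim2 and Atp1a4.

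The DEmRNA probes of chromosome 1 nearest to the members in size of difference, leaving out the members themselves, had lower signals in Nrf2 (−/−) mice. Fn1, encoding fibronectin, was read by 2 probes with log2 differences of −1.57 (limma SE 0.39, adjusted p = 0.446) and −1.55 (limma SE 0.33, adjusted p = 0.296). Nek2, a mitotic kinase, differed by −1.61 (limma SE 0.38, adjusted p = 0.375). With the scan pass as a block, the adjusted p was 0.0263 and 0.0242 for the Fn1 probes and 0.0144 for Nek2. Cpa6, a carboxypeptidase, differed by −1.61 (limma SE 0.43, adjusted p = 0.519). It stood well above background on 2 of 3 Nrf2 (+/+) and 1 of 3 Nrf2 (−/−) arrays, and the difference was −0.52 with normexp, so its size is uncertain. Utp14b, a retrogene for ribosome biogenesis, had no array well above background in Nrf2 (−/−) mice, where it was lower by at least 2.62-fold (adjusted p = 0.110). With normexp its log2 difference was −0.53, so this bound holds for the quantile-normalized scale alone. With the scan pass as a block, its adjusted p was 0.0152, and that of Cpa6 was 0.0972. Utp14b passed the filter through the wild-type arrays alone, so nothing is read from its p-values. Among the 22 DElncRNA probes of chromosome 1, 6 had higher and 16 lower signals in Nrf2 (−/−) mice. A pair of the higher ones, named here after their values were seen, were well above background on every array. AK037363 rose by 1.84 on the log2 scale (limma SE 0.20, adjusted p = 0.0413, from 0.0121 to 0.323 over the alternatives). In the fit without a block, it was the only 1 of the 22 with an adjusted p under 0.05. For the lncRNA listed under Dusp12, the log2 signal was 7.43 ± 0.11 (SD, n = 3) in the wild-type and 9.04 ± 0.32 in the knockout mice, a difference of 1.62 (limma SE 0.22, adjusted p = 0.110). With the scan pass as a block, the adjusted p was 0.0102 for this lncRNA and 0.0165 for AK040514, also among the 22. From the value of AK040514 nothing is read, as it passed the filter through the knockout arrays alone.

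**Figure D5:**
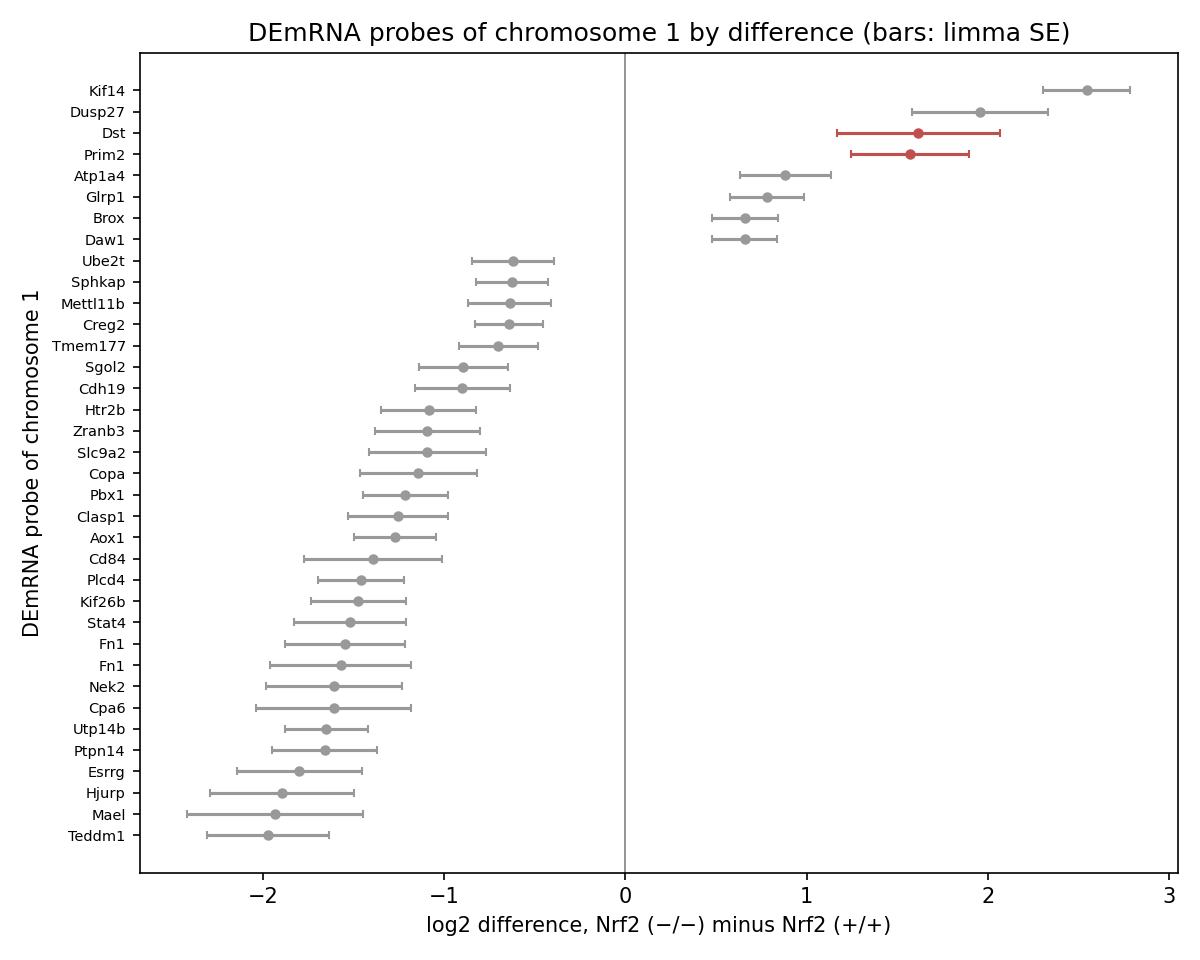
Log2 difference, Nrf2 (−/−) minus Nrf2 (+/+), of the 36 DEmRNA probes of chromosome 1, with bars for the limma SE and Prim2 and Dst in red. The 8 probes with higher signals are at the top, among them Dst at 1.62 and Prim2 at 1.57, and the fitted values of Kif14, Dusp27 and Daw1 rest on wild-type signals not well above background.

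Other genes of the same pathways could be followed only in part. Of 38 genes of the DNA polymerase alpha-primase complex and the replication fork, 0 had a probe that can be named. Of 24 genes of the plakin family and the partners of dystonin, 3 could be named, through the list of DEmRNAs, and all 3 had lower signals in Nrf2 (−/−) mice. On that list 303 of 412 probes, or 73.5%, were lower, so nothing is read from this count. The median log2 difference over all tested probes was −0.0078. Itga6, encoding the integrin chain that pairs with integrin beta 4 in hemidesmosomes, averaged log2 signals of 9.80 ± 0.18 (SD, n = 3) and 8.02 ± 0.47, a difference of −1.78 (adjusted p = 0.137). Dsp, encoding desmoplakin of the desmosome, had a difference of −1.73 (adjusted p = 0.167), and Ppl, encoding periplakin, −0.76 (adjusted p = 0.586). In limma, 0 of the 3 had an adjusted p under 0.05, and all 3 had an unadjusted p under 0.05, the limit by which the study had picked them from these arrays. Without Nrf2 (−/−) replicate 2, the adjusted p was 0.0318 for Dsp, 0.0374 for Itga6 and 0.589 for Ppl. With the scan pass as a block, it was 0.0189, 0.0157 and 0.1204.

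Among the markers of other cell types, 2 could be named, both through the DEmRNA list. Mki67, a marker of cycling cells and 1 of 4 on its list, averaged 7.39 ± 0.34 (log2 signal, SD, n = 3) in Nrf2 (+/+) and 6.26 ± 0.15 in Nrf2 (−/−) mice, a difference of −1.13 (adjusted p = 0.253). Its sign was opposite to that of Prim2. As most DEmRNA probes were lower and the other markers on its list could not be named, nothing is read from this. Tmem212, a marker of ependymal cells and 1 of 4 on its list, had signals of 8.48 ± 0.74 and 10.01 ± 0.55, a difference of 1.53 (adjusted p = 0.566). None of the markers of neurons, astrocytes, oligodendrocytes, microglia, choroid plexus, endothelium, meninges and pericytes could be named, and the part of cell composition in the Prim2 and Dst signals was not tested.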

How the data were processed

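Samples from the hippocampus of 3 mice per genotype were hybridised to Arraystar Mouse LncRNA V3.0 arrays (Agilent, 1 dye), designed on mm9. The authors extracted spot intensities, background and flags with Agilent Feature Extraction 11.0.1.1 and deposited these intensity values without normalization between arrays. They also deposited log2 signals, quantile-normalized in GeneSpring GX. The flags and identifiers deposited have other units. Here, outlier spots were left out, log2 intensities were averaged per probe and quantile-normalized, and a probe entered the tests when 3 or more of its 6 arrays were flagged as well above background. The result differed from the deposited log2 values by a median of 0.00097. Genotypes were compared with limma 3.58.1 in R 4.3.3 with Benjamini-Hochberg adjustment over 43528 probes, which gave all adjusted p-values unless another test is named. The number of arrays limits the precision. Each array came from a separate mouse, and same-numbered replicates were not treated as pairs.

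Alternatives were the 75th percentile shift, normexp (on median spot signals, since mean signals are not among the columns used), the filter, outlier spots, blocks for replicate, scan pass and scan session, an intensity trend, the t-test of the methods and each array left out. The code was tested on simulated data. The files give most probes no gene, so 412 DEmRNA and 278 DElncRNA probes were named by matching the statistics of the study's lists, with a relative tolerance of 0.0001. Those lists hold the authors' own fold changes and p-values, of which none is printed here. The genes named are Nfe2l2, both members, the 5 probes most like each, listed genes nearest in order or in size of difference on chromosome 1, and named genes of the lists. Prim2, Dst and all lists were chosen with earlier results of these data known. Gene order and the positions of the 2 Dst starts came from RefSeq on GRCm38.p6, and no other gene coordinates were used. Python 3.11.15 with numpy 2.4.6, pandas 2.3.3 and matplotlib 3.10.9 served for the other steps.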

Additional observations from a re-analysis of the deposited data

How the results depend on the processing

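Prim2 and Dst kept higher means in Nrf2 (−/−) mice under all 17 alternatives each. On the quantile-normalized scale the genotypes did not overlap, so leaving out an array or taking single pairs could not reverse the direction. The filter settings and the replicate block cannot change the difference either. Past the spread between replicates, the Prim2 difference moved to 0.59 within the scan pass of both replicates 1, and the Dst difference to 2.38 in that pass and to 0.63 with normexp. Dst had no value among probes well above background on all arrays, as it failed that filter. With the replicate block, the differences were 1.57 (SE 0.38) and 1.62 (SE 0.28). The deviations of same-numbered arrays correlated at −0.15, 0.43 and 0.81. Both replicates 1 and both replicates 3 also shared a scan pass, so these values do not tell whether the numbers pair the mice.

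The count of probes with an adjusted p under 0.05, 21 as reported, was 9 without the filter on dim probes and 9 with all arrays required above background, 568 with the scan pass as a block, and 0 with the replicate block (7090 at an unadjusted p under 0.05) and by the methods' t-test (2535 at an unadjusted p under 0.05). Leaving out 1 array gave 8 to 195 (195 without the second Nrf2 (−/−) array, 8 and 10 without Nrf2 (+/+) replicates 1 and 3, and 12 when Nrf2 (−/−) replicate 3 was dropped). Past the DEmRNA limits, the 544 higher probes became 1003 with the 75th percentile shift, 225 with normexp, 362 with all arrays required above background, 1235 with the replicate block, 2299 with the scan pass as a block and 286 by the methods' t-test, and 353 to 2371 when 1 array was left out (353 and 2371 without Nrf2 (+/+) replicates 3 and 2, 908 and 818 without Nrf2 (−/−) replicates 1 and 3). The 1156 lower probes became 642 with normexp and 2607 with the scan pass as a block, and 777 to 2011 when 1 array was left out (2011 without Nrf2 (+/+) replicate 2). For the plakin list, 0 to 2 of 3 named genes passed when 1 array was left out. The cause of these shifts was not tested. For 35 other probes, 3 of them without a gene name, the direction reversed in 0 of 583 comparisons with the alternatives. The filter settings, the replicate block, the intensity trend and the t-test leave the difference as it was, so those comparisons could not reverse. Most of the 35 probes came from lists chosen on the same contrast. In 23 of the comparisons an adjusted p under 0.05 was lost, and in 21 it was gained. The dim wild-type Dst signals are limited by their closeness to background.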
